A study of Saccharomyces cerevisiae with 9 samples.

Results

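Yeast genes that have never received a standard name carry only a systematic one, which encodes the chromosome, the arm and the strand of the reading frame. Described here are 37 such genes whose RNA signal was lower in both of the dry yeasts measured than in growing cells. They were selected on measured values: a gene entered when a probe set assigned to it alone had a mean deposited signal of at least 150 in control cells, and when that mean was at least 2 times the mean in dried BY4743 and at least 2 times the mean in commercial dry yeast, each of these floored at 50. Another 5 systematic-name genes were left out of the choice by name, and 1 of those met the thresholds. The rule found 38 probe sets, since YKL033W-A is measured by 2 of them, out of 258 systematic-name probe sets that reached the control minimum. The arrays named 5656 genes singly, of which 449 had a systematic name alone.

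The arrays, of the Affymetrix Yeast S98 design, numbered 9 and carried total RNA of Saccharomyces cerevisiae, 3 for each of 3 groups. BY4743 is a diploid laboratory strain derived from S288C with deletions, whole or partial, of URA3, LEU2 and HIS3. Control BY4743 had been growing in YPD, a rich glucose medium, at 30 °C to an A600 of 0.8 and was then moved into diluted YPD. Dried BY4743 came from the same kind of suspension after 42 h of drying and 72 h more at 20% relative humidity. The commercial dry active yeast has no strain, culture or drying of its own in the sources used here, because its labels repeat the BY4743 text. No group of undried cells kept for the same time was analysed here, so drying and time in diluted medium cannot be told apart, and strain, culture and drying cannot be told apart for the commercial yeast. The labels do not say whether separate cultures lay behind the 3 arrays of each group, so the errors and p-values below measure a spread that may be technical.

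When yeast leaves rapid growth it lowers the RNA of ribosomal proteins, ribosome assembly factors and translation enzymes together, and raises RNA of stress and storage genes. Dry yeast survives in a state with almost no metabolism, and RNA found in it was largely made before or during the loss of water. Genes with a systematic name alone are a mixed class: some encode enzymes that were assigned to a family by sequence, some encode membrane proteins seen only by their location in the cell, and some have no described product.

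Signals below are quantile-normalised and printed on a linear scale, which makes them relative to the other transcripts on the array. Background was set on each array from 28 control probe sets with no target in the RNA, at their 95th percentile. A group with all 3 arrays at or under it is called at background, and a difference from it is a bound. Signals of different probe sets depend on their probes and were not set against each other. Array profiles correlated at r of 0.971 or more within groups, and 72.1% to 81.0% of probe sets lay above background. The strain labels were checked with URA3, which read 2.80 ± 0.398 in control, 1.00 ± 0 in dried BY4743 and 365 ± 36.3 in commercial yeast (SD, n = 3). LEU2 was less clear-cut: its probe set with the highest signal read 84.5 ± 11.4 in control, above the control arrays' backgrounds of 32.7 to 47.7, 29.7 ± 14.4 in dried BY4743 and 382 ± 54.3 in commercial yeast. The other two LEU2 probe sets had control means of 9.78 and 16.8. The log2 difference between the 3′ and 5′ probe sets of ACT1, a sign of RNA integrity, was -0.40 ± 0.27 in control, 1.40 ± 0.17 in dried BY4743 and 0.42 ± 0.098 in commercial yeast. This measure moved with both dry groups, and its part in the lower signals was not tested. A lower signal in a bulk sample can mean less RNA per cell or fewer cells that hold the RNA, and these cannot be told apart.

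The name of the class fitted the annotation but not all of the genes. All 37 genes were in the RefSeq table of assembly R64, none had a standard symbol there, and 2 had a synonym. A known product, protein family, relative or cellular location could be stated for 28 of them from textbook knowledge, and for 9 no role is stated. The role groups used below were drawn up after the list of genes had been seen. YDR341C shows the limit of the label: it encodes the cytosolic arginyl-tRNA synthetase, which charges the arginine tRNA for translation.

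The control means of the 38 probe sets ran from 179 to 3821, with a median of 552. In dried BY4743 they ran from 6.71 to 1048 (median 91.8), and in commercial yeast from 5.77 to 1424 (median 136.0). The median log2 difference from control was -2.34 in dried BY4743, or -2.10 with groups at background set to their bound, and -1.84 in commercial yeast. In all 38 the 3 control arrays lay above all 6 dry arrays, which the rule itself makes likely. The share of all probe sets with that order was not counted. These differences chose the genes and are descriptions with no test. As background, 69.2% of the 9275 probe sets passed an adjusted p of 0.05 between dried and control BY4743, 72.5% between commercial yeast and control, and 9.95% met the thresholds of the rule. No control group was at background for any of the 38, against 8 dried groups and 2 commercial groups.

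**Figure D1:**
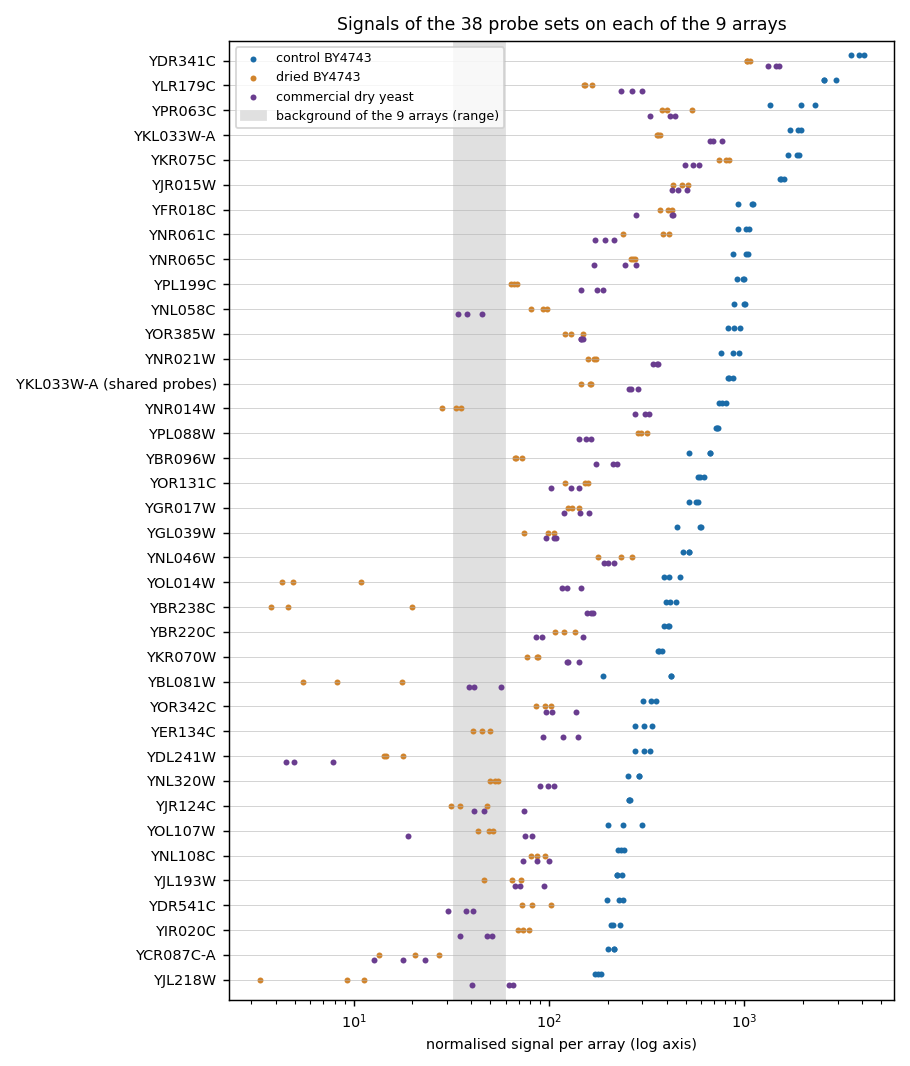
Quantile-normalised signal (log scale) of each of the 38 probe sets on each of the 9 arrays, with points coloured by group. Each row is 1 probe set, and in every row the 3 control points lie above the 6 dry points, while the order of the dried and commercial points varies from row to row.

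Nearest to the thresholds, in deposited signals, YNL046W entered with a smaller ratio of 2.08 to a dry group, YNL108C with 2.24 and YKR075C with 2.28. Just outside were YDL085C-A at 1.94, YCR090C at 1.91 and YJL213W at 1.88. At the control minimum, YJL218W entered with a deposited mean of 165.8, YCR087C-A with 195.6 and YIR020C with 201.7. YCR043C at 144.8, YAL063C-A at 143.6 and YML096W at 119.7 met the ratio but not the minimum.

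**Figure D2:**
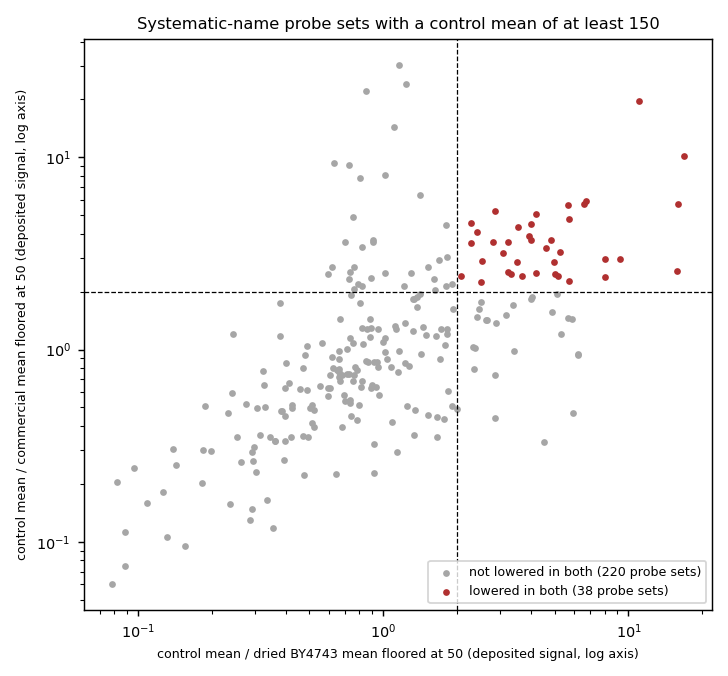
Ratio of control to commercial yeast (vertical, log scale) against ratio of control to dried BY4743 (horizontal, log scale), from deposited means. Dry means were floored as in the rule. Shown are the 258 systematic-name probe sets with a control mean of at least 150. The 38 that met the rule are red and the other 220 grey, and a dashed line on each axis marks the ratio of 2.

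The comparison that the rule did not fix is that between the 2 dry yeasts, although both had to lie below control. Among the 38 probe sets, 15 were higher in commercial yeast than in dried BY4743, 7 were lower and 16 did not pass the test (limma, adjusted over 9275 probe sets). The same test called 66.5% of all probe sets, 33.1% higher and 33.5% lower, so the share called among the 38 was below that over all probe sets and more of the calls were higher in commercial yeast. The median difference of the 38 was 0.15 on the log2 scale against 0.00 over all probe sets. With arrays scaled to spike-in controls instead, 5 were higher and 20 lower, and over all probe sets 819 were higher and 5387 lower around a median of -1.10. Of the 15 that were higher, 5 kept that direction and call under the spike-in scaling: YBR238C, YOL014W, YNR014W, YJL218W and YBL081W. The 7 that were lower also kept theirs, but the downward shift of all probe sets favours that result, so it adds no support to those calls. Directions between the dry yeasts given below are relative to the middle of each array. Of the other 10 that were higher, 7 had a negative difference under the spike-in scaling, and among these only YDR341C was called lower (limma, adjusted p = 0.025). The remaining 3 kept their direction but lost their call.

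**Figure D3:**
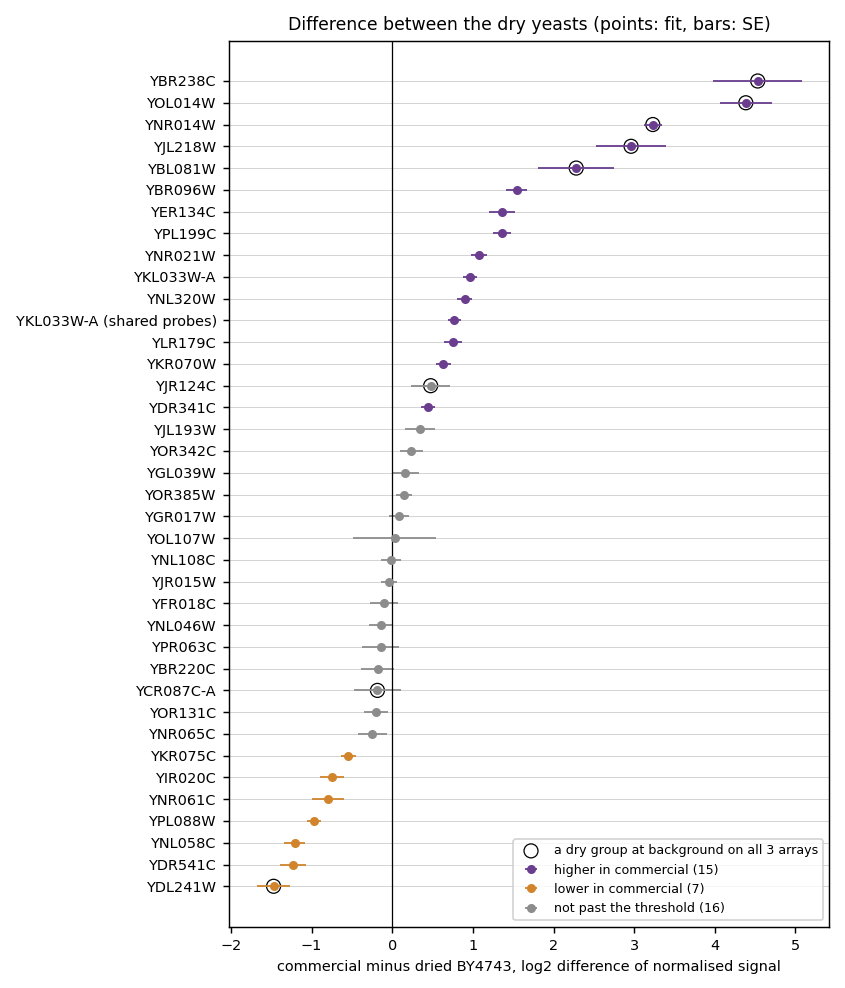
Log2 difference between commercial yeast and dried BY4743 for the 38 probe sets, with colours for higher, lower and not called. Bars are the SE from the limma fit and are narrower than 95% intervals. Points run from below 0, where YNL058C and YDR541C lie, to above 4 for YBR238C and YOL014W, whose dried group was at background.

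Among genes of protein synthesis and RNA, YDR341C read 3506, 4104 and 3854 on the control arrays, 1037, 1035 and 1070.4 on the dried arrays and 1322, 1506 and 1444 on the commercial arrays. The 3 groups of this arginyl-tRNA synthetase did not overlap, and its mean was 3.64 times lower than control in dried BY4743 and 2.68 times lower in commercial yeast. Commercial yeast was higher than dried BY4743 by 0.44 ± 0.09 on the log2 scale (SE, adjusted p = 0.00259), a call that was lost with the values as deposited (adjusted p = 0.0672) and with arrays centred on the median (adjusted p = 0.108).

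YPL199C encodes a protein with an Smr domain, a fold also found in proteins that handle nucleic acids. Its signals were 987, 912 and 995 in control, 66.0, 64.1 and 68.4 in dried BY4743 and 145, 177 and 189 in commercial yeast. The dried arrays lay close together at 14.6 times below control, and the commercial arrays were 5.69 times below it. The dry groups differed by 1.36 ± 0.11 on the log2 scale (adjusted p = 1.84e-05). YCR087C-A, a zinc finger protein of the nucleolus, the site of ribosome assembly, had a mean of 209.9 ± 9.14 in control and was at background in both dry groups. Its signal was at least 4.12-fold lower in dried BY4743 and at least 5.51-fold lower in commercial yeast, and no order between them is given.

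Enzymes of the haloacid dehalogenase family cleave phosphate and other groups from small molecules, and 4 of the genes belong to it. Of their 5 probe sets 4, including both of YKL033W-A, were higher in commercial yeast than in dried BY4743 and 1 did not pass the test. Over all probe sets 33.1% were higher, and none of the 4 kept its call with spike-in scaling. YKL033W-A, a putative hydrolase, read 1714, 1942 and 1884 in control, 358, 362 and 369 in dried BY4743 and 665, 772 and 688 in commercial yeast. The groups were ordered control, commercial, dried with no overlap, and the dry groups differed by 0.96 ± 0.09 on the log2 scale (adjusted p = 3.38e-05). A second probe set of the same gene, some of whose probes may be shared with other sequences, gave means of 843 ± 22.9, 157 ± 9.54 and 269 ± 16.2 in control, dried and commercial yeast. Its difference between the dry groups was 0.77 ± 0.08 (adjusted p = 7.96e-05), in the same direction as that of the first.

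YKR070W, a mitochondrial member of the family, had means of 368 ± 9.84 in control, 84.0 ± 5.98 in dried BY4743 and 130.5 ± 10.3 in commercial yeast. The dry groups differed by 0.63 ± 0.09 on the log2 scale (adjusted p = 0.000406). YER134C, a magnesium-dependent acid phosphatase, read 306, 276 and 338 in control, 45.2, 40.6 and 49.9 in dried BY4743 and 119, 140.5 and 93.3 in commercial yeast. All commercial arrays lay above all dried arrays, of which 1 of 3 was above background, and the difference was 1.36 ± 0.16 (adjusted p = 0.000161). YOR131C, the family member not called after quantile normalisation, had 144 ± 20.3 in dried BY4743 and 125 ± 20.4 in commercial yeast after 600.0 ± 22.4 in control. Its dry groups overlapped, and the 95% interval of their log2 difference was -0.55 to 0.14 (adjusted p = 0.261).

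Aldehyde and ketone reductases use reduced nicotinamide cofactors to convert carbonyl compounds to alcohols, and 3 of the genes encode proteins of this kind. YPL088W, a putative aryl alcohol dehydrogenase, read 720.1, 726 and 735 in control, 287, 297 and 319 in dried BY4743 and 142, 165 and 154 in commercial yeast. Its commercial arrays were the lowest of the 3 groups, by -0.97 ± 0.08 on the log2 scale against dried BY4743 (adjusted p = 2.43e-05). YDR541C, an aldehyde reductase related to Gre2, read 198, 229 and 239 in control, 103, 72.4 and 81.6 in dried BY4743 and 30.5, 37.5 and 41.0 in commercial yeast. No dry array of one group reached the range of the other, with 2 of the 3 commercial arrays above background, and the difference was -1.23 ± 0.16 (adjusted p = 0.000295). YGL039W, another NADPH-dependent relative of Gre2, had 549 ± 85.2 in control, 93.2 ± 16.3 in dried BY4743 and 103 ± 6.44 in commercial yeast. The interval of its difference was -0.22 to 0.55 (adjusted p = 0.41).

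Other enzyme families were represented by 4 genes, of which 2 were higher in commercial yeast and 2 did not pass the test. YNL320W, a putative alpha/beta hydrolase, read 289, 255 and 288 in control, 54.9, 53.0 and 50.03 in dried BY4743 and 89.7, 107 and 98.8 in commercial yeast. These groups did not overlap, 2 of 3 dried arrays were above background, and the dry yeasts differed by 0.90 ± 0.10 (adjusted p = 8.01e-05). YJL218W resembles bacterial enzymes that acetylate sugars. It read 184, 179 and 173 in control and 40.3, 62.1 and 65.4 in commercial yeast, with 2 of 3 arrays above background, and it was at background in dried BY4743, at least 3.51-fold below control. The commercial signal exceeded the dried one by at least 1.07-fold, and the call (adjusted p = 0.000495) was lost when signals were floored at background (adjusted p = 0.0701).

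YFR018C, a relative of glutaminyl cyclases, had means of 1041 ± 99.3 in control, 399.6 ± 27.7 in dried BY4743 and 379 ± 86.0 in commercial yeast. YNL108C, a relative of the transcription factor subunit Tfc7, read 227, 243 and 233 in control, 86.4, 80.5 and 95.2 in dried BY4743 and 86.7, 101 and 73.8 in commercial yeast. The ranges of its dry groups overlapped, and its log2 difference had a 95% interval of -0.30 to 0.27 (adjusted p = 0.929).

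None of the 3 predicted transporters was called between the dry yeasts after quantile normalisation of all 9 arrays, but each was called under another scaling. YBR220C, a predicted acetyl-CoA transporter, read 412, 406 and 389 in control, 107, 119 and 137 in dried BY4743 and 150.2, 86.1 and 92.4 in commercial yeast. The highest and the lowest of its 6 dry signals were both in the commercial group. Without commercial replicate 1, which held that highest signal, the difference was -0.44 and passed the test (adjusted p = 0.0147), and with spike-in scaling of all 9 arrays it was -1.32 (adjusted p = 0.00543). YJR124C, of the major facilitator family, read 257, 261 and 256 in control and was at background in dried BY4743, at least 5.07-fold lower. Its commercial arrays read 74.4, 41.4 and 46.5 (adjusted p = 0.113 against dried), at least 1.03-fold above the dried ones. The test called YJR124C higher in commercial yeast without dried replicate 2 (adjusted p = 0.0486), with the values as deposited (adjusted p = 0.0109) and with arrays centred on the median (adjusted p = 0.00815), and against a dried group at background no size is given for these calls. YJL193W, a relative of the membrane protein Sly41, read 236, 223 and 224 in control, 46.7, 72.2 and 64.6 in dried BY4743 and 94.3, 71.3 and 66.8 in commercial yeast, with overlap between the dry groups (adjusted p = 0.134) and 2 of 3 dried arrays above background. It was called higher in commercial yeast by 0.63 with the values as deposited (adjusted p = 0.0331) and by 0.66 with arrays centred on the median (adjusted p = 0.0227).

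Proteins of the endoplasmic reticulum, where secreted and membrane proteins are made, and of other membranes were encoded by 7 of the genes. Between the dry yeasts 2 were higher in commercial yeast, 1 was lower and 4 did not pass the test. YBR096W, a protein of the endoplasmic reticulum, read 668, 523 and 667 in control, 73.0, 67.4 and 67.9 in dried BY4743 and 174, 222 and 214 in commercial yeast. The 3 groups were apart, and the dry groups differed by 1.54 ± 0.13 on the log2 scale (adjusted p = 2.71e-05). YNR021W, a membrane protein of the same compartment, read 756, 871 and 936 in control, 173, 169.6 and 159 in dried BY4743 and 340.2, 359 and 359.6 in commercial yeast. Each of its commercial signals was above all of the dried ones, with a difference of 1.08 ± 0.10 (adjusted p = 3.02e-05).

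YNL058C, a relative of the membrane protein Prm5, went the other way. It read 990.4, 1006 and 887 in control, 93.1, 80.9 and 97.2 in dried BY4743 and 34.0, 38.1 and 45.5 in commercial yeast. Its mean was 10.6 times lower than control in dried BY4743 and 24.7 times lower in commercial yeast, where 2 of 3 arrays were above background, and the dry groups differed by -1.21 ± 0.13 (adjusted p = 8.06e-05). YPR063C, in the endoplasmic reticulum, had the widest control spread of the 7 relative to its mean, with 1349, 2309 and 1944, beside 441 ± 87.0 in dried BY4743 and 397 ± 58.9 in commercial yeast. The 95% interval of its log2 difference between the dry yeasts was -0.68 to 0.39, while that of YJR015W, a predicted membrane protein, was -0.26 to 0.19 around means of 476 ± 39.9 and 463 ± 40.1. YNR065C, a relative of the sorting receptor Pep1, and YNL046W, of the endoplasmic reticulum, were not called (adjusted p = 0.249 and 0.417). Without dried replicate 1, YNL046W passed the test at -0.30 (adjusted p = 0.0382) and no longer met the rule that chose it.

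Relatives of named proteins were 4 of the genes. YLR179C, related to Tfs1, an inhibitor of the vacuolar carboxypeptidase, read 2955, 2566 and 2544 in control, 165, 151 and 154 in dried BY4743 and 233, 300.04 and 266 in commercial yeast. The dry means were 17.1 and 10.1 times below control, with no overlap between any of the groups, and commercial yeast was higher than dried BY4743 by 0.76 ± 0.11 on the log2 scale (adjusted p = 0.000569). YBR238C, a mitochondrial relative of Rmd9, which helps to keep mitochondrial messenger RNA stable, read 398, 445 and 418 in control and 156, 168 and 164 in commercial yeast. Its dried arrays were at background with 3.79, 19.9 and 4.61, at least 8.25-fold below control. The commercial signal was at least 3.20-fold above the dried one (adjusted p = 0.000174).

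YKR075C, related in part to the phosphatase regulator Reg1, read 1858, 1908 and 1672 in control, 806, 833 and 738 in dried BY4743 and 499.7, 544 and 588 in commercial yeast. Here the commercial arrays lay below the dried ones, by -0.54 ± 0.10 on the log2 scale (adjusted p = 0.0014). YOR385W, a relative of Dia1, had means of 889.6 ± 64.3 in control, 133 ± 15.0 in dried BY4743 and 146 ± 1.75 in commercial yeast. That difference between the dry yeasts did not pass the test (adjusted p = 0.236).

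Of the 9 genes with no stated role, 3 were higher in commercial yeast, 3 lower and 3 not called. This is close to the shares over all probe sets, 33.1% higher and 33.5% lower. YNR014W read 742, 805 and 768 in control, 28.3, 33.6 and 35.4 in dried BY4743 and 312, 276 and 324 in commercial yeast. The dried group was at background, at least 15.2-fold below control, and the commercial signal was at least 5.95-fold above the dried one (adjusted p = 3.35e-07). YOL014W had the same order, with 409, 467 and 388 in control, 4.89, 10.9 and 4.33 at background in dried BY4743 and 116, 123 and 147 in commercial yeast. It was at least 8.25-fold below control in dried BY4743, and commercial yeast was at least 2.52-fold above dried (adjusted p = 1.14e-05).

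YBL081W read 423, 422 and 188 in control, so that 1 control array stood far below the other two. It was at background in dried BY4743, at least 6.34-fold lower, and read 41.6, 38.9 and 57.0 in commercial yeast, with 2 of 3 arrays above background. Commercial yeast was called higher (adjusted p = 0.00324), but with signals floored at background the difference was 0.15 (adjusted p = 0.791).

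YNR061C read 1025, 1061 and 924 in control, 240.0, 383 and 410.4 in dried BY4743 and 172, 216 and 194 in commercial yeast. Its commercial arrays were all below its dried arrays, by -0.80 ± 0.20 (adjusted p = 0.00889). YIR020C was lower in commercial yeast too, with 218 ± 11.6 in control, 74.2 ± 4.69 in dried BY4743 and 44.7 ± 8.61 in commercial yeast, where 2 of 3 arrays were above background (adjusted p = 0.00235). YDL241W read 305, 275 and 328 in control and was at background in both dry groups, at least 5.93-fold lower in dried BY4743 and at least 7.93-fold lower in commercial yeast. The test called it lower in commercial than in dried yeast (adjusted p = 0.000418), a difference that lay wholly within background. YGR017W, YOR342C and YOL107W were not called after quantile normalisation of all 9 arrays (adjusted p = 0.572, 0.185 and 0.965). With arrays centred on the median, YOR342C was called higher in commercial yeast by 0.36 (adjusted p = 0.0498). With spike-in scaling, YOR342C and YGR017W were called lower there, by -0.90 (adjusted p = 0.036) and -1.12 (adjusted p = 0.0107). In YOL107W the commercial arrays read 75.5, 81.9 and 19.0, with 2 of 3 above background beside 1 of 3 dried arrays, and without commercial replicate 3 it was higher than dried by 0.73 (adjusted p = 0.0105).

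A low reading in commercial yeast can also come from a gene that its strain lacks or carries with a sequence unlike the probes. This was not tested, and it cannot be told apart from less RNA for the 7 probe sets that were lower there. The 16 probe sets that did not pass the test are not shown to be equal in the dry yeasts: their 95% intervals reached from -1.17 to 1.23, and these intervals hold for quantile normalisation alone. With spike-in scaling 12 of the 16 were called lower in commercial yeast, by -1.55 to -0.90 on the log2 scale.

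The share lowered in both dry yeasts was counted beside that of named genes, with no test of the difference. Of the 258 systematic-name probe sets at or above the control minimum, 14.7% met the thresholds in both dry groups, beside 20.4% of 3950 probe sets of named genes. The dried threshold alone was met by 24.8% and 30.7% of these sets, and the commercial threshold alone by 27.9% and 28.4%. The 805 probe sets of named genes lowered in both had more calls between the dry yeasts than the 38, with 48.1% higher and 22.7% lower in commercial yeast and a median log2 difference of 0.35, against 39.5%, 18.4% and 0.15. Among the 220 systematic-name probe sets that reached the control minimum but not the rule, 34.1% were higher and 36.8% lower (median -0.02). For the 65 systematic-name probe sets raised in both by the mirrored rule the shares were 29.2% and 26.2% (median -0.03).

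Growth genes were described in the same way from lists of symbols. Of 106 probe sets of cytosolic ribosomal proteins, 54 met the rule's thresholds in both dry groups, and 86.8% were higher in commercial than in dried yeast, with a median log2 difference of 1.70. Of 79 probe sets of ribosome assembly factors, 26 met the thresholds and 68.4% were higher (median 0.52). The 38 systematic-name probe sets had a smaller share higher in commercial yeast and a smaller median than either list. These sets are unlike, because all of the 38 had to lie at least 2 times below control in commercial yeast. Of the ribosomal protein probe sets 50.9% met that commercial threshold, and of the assembly factor probe sets 35.4%. The rule itself thus limits how high the 38 can stand in commercial yeast, and the difference was not tested.

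**Figure D4:**
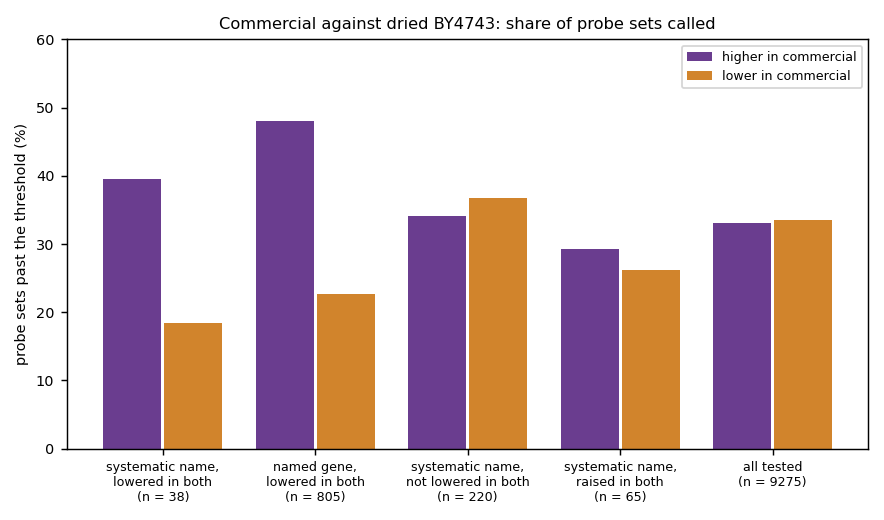
Share of probe sets (percent, axis from 0) that limma called higher or lower in commercial yeast than in dried BY4743. Shown are the 38 probe sets, named genes lowered in both, systematic-name probe sets not lowered in both, those raised in both, and all 9275. The 38 have 39.5% higher and 18.4% lower, and named genes lowered in both have 48.1% and 22.7%.

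Position on the chromosome was a feature that the rule did not use. The 37 genes lay on 13 of the 16 nuclear chromosomes, with 8 on chromosome XIV, which held 19 systematic-name genes at the control minimum, and 5 on XV, which held 21. None of the 37 was the immediate neighbour of another. Of their 74 neighbouring protein-coding genes in the R64 table, 67 were measured singly, and 10 of these (14.9%) met the same thresholds, against 13.3% of all 5656 genes. A shared upstream region, with the pair transcribed away from each other, was found for 18 measured neighbours, and 5 of them met the thresholds: ALG3 beside YBL081W, HEM2 beside YGL039W, MRS1 beside YIR020C, SAM1 beside YLR179C and RPL7B beside YPL199C. The probe sets of ALG3 and RPL7B may share probes with other sequences.

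SAM1 makes S-adenosylmethionine, the methyl donor of the cell, and shares its upstream region with YLR179C. It read 2356 ± 187 in control, 80.7 ± 2.75 in dried BY4743 and 66.8 ± 5.24 in commercial yeast, with log2 differences from control of -4.87 and -5.14. SAM1 is described because it met the thresholds, so no p-value is given for these differences. On the other side of YLR179C lies TFS1, its own relative, which read 2481 ± 178 in control, 5080 ± 46.5 in dried BY4743 and 5553 ± 101 in commercial yeast. TFS1 rose by 1.04 and 1.16 on the log2 scale (adjusted p = 6.12e-06 and 3.44e-06), while YLR179C next to it was 17.1 and 10.1 times lower. ECM4, a glutathione transferase that shares an upstream region with YKR075C, rose as well, from 527.5 ± 33.7 in control to 4397 ± 160 in dried BY4743 and 3059 ± 36.4 in commercial yeast (adjusted p = 3.39e-08 and 7.53e-08). Neighbours with a shared upstream region thus included both falling and rising genes. The 67 measured neighbours had a median log2 difference from control of -0.25 in dried BY4743 and -0.31 in commercial yeast. Over all probe sets the medians were 0.04 and -0.01. Over probe sets of named genes at or above the control minimum they were -0.26 and -0.29, close to those of the neighbours.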

How the data were processed

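The authors deposited 1 linear intensity per probe set and array for 9 arrays. Per the labels' protocols, Affymetrix software read the scanned images, after which a Wilcoxon signed rank test and a linear mixed model were used; no software version is stated in those labels. The selection rule was applied to these deposited intensities and to the platform annotation, with symbols checked in the RefSeq table of assembly R64. Signals were then floored at 1, log2-transformed and quantile-normalised with limma 3.58.1 in R 4.3.3. The 60 control probe sets were left out and 9275 were tested with 1 mean per group (lmFit and eBayes, 6 residual and 1.64 prior degrees of freedom, two-sided, Benjamini-Hochberg over all, threshold 0.05); the procedure was tested on simulated data. Counts and figures were made in Python 3.11.15. The number of arrays limits precision.

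The genes, lists and comparisons were chosen with earlier results of these data known, and role groups and relatives after the member list was seen. Contrasts with control chose the genes, so no p-value is given for them there. For a bound, each array of the group at background was given its background level or its own signal, whichever was higher, and the mean log2 of these was compared with that of the brighter group. Genes to name were those with the highest control signal, the largest lowering, the largest called differences between the dry yeasts, those next to a threshold, with 2 probe sets or with a known family, plus neighbours; members outside these are given for completeness.

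Same-numbered arrays of different groups did not deviate together (correlations of deviations from group means -0.040 to 0.043), so the replicate numbers were not treated as pairs. Alternatives were the scaling, floor, offset, dim filter, array set, replicate block, and leaving out each array. Promoter motifs were planned, but no sequence was used here.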

Additional observations from a re-analysis of the deposited data

How the results depend on the processing

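Of the 22 probe sets called between the dry yeasts, 18 kept direction and call under all alternatives run on them other than spike-in scaling (17, or 16 for the second probe set of YKL033W-A); the exceptions were YDR341C and YDL241W with the values as deposited and with arrays centred on the median, and YDL241W, YBL081W and YJL218W with signals floored at background. Spike-in scaling, which shifted the median of all probe sets by -1.10, gave 819 probe sets higher and 5387 lower (13.2% of calls higher, against 49.7%), and 5 higher and 20 lower among the 38, 12 of the lower calls being of probe sets not called after quantile normalisation. Under it the log2 difference reversed for YDR341C (-0.94), YLR179C (-0.52), YKL033W-A (-0.44, and -0.52 for its second probe set), YOR385W (-1.06), YNR021W (-0.22), YGR017W (-1.12), YGL039W (-0.96), YKR070W (-0.49), YOR342C (-0.90) and YNL320W (-0.076). Of these, YDR341C, YOR385W, YGR017W, YGL039W and YOR342C were called lower under it. A reversal was counted only where either fit passed the test. The sign also changed for YJR124C (-0.31), YJL193W (-0.61) and YOL107W (-0.74), which passed in neither. YCR087C-A, at background in both dry groups, reversed to 0.69 as deposited and 0.72 with median centring. Those 2 scalings shifted all probe sets by 0.13 and 0.16.

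The median log2 difference from control in dried and commercial yeast was -2.73 and -3.50 with spike-ins, -2.49 and -2.002 with median centring, -1.81 and -1.51 with an offset of 50, and -2.13 and -1.75 without the dimmest 25%. It was -2.20 in dried yeast with the floor at background and -1.92 in commercial yeast without shared-probe suffixes. Leaving out 1 array gave -2.37 to -2.28 and -1.86 to -1.80, with 37 to 40 probe sets meeting the rule, 15 to 16 called higher and 7 to 8 lower. Leaving out control arrays was an alternative added after seeing the data. A ratio of 4 left 8 probe sets, a ratio of 1.5 gave 55, and a control minimum of 100 or 300 gave 42 or 27. The fit with the replicate number as a block called 2974 probe sets higher and 3041 lower and changed 0 calls among the 38 (15 higher, 7 lower). The causes of these shifts were not tested. Promoter motif alternatives were not run. Signals near background limit the differences that can be read for the 8 probe sets at background in dried yeast.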

Other observations

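Named relatives of these genes were measured on the same arrays. They were listed after the genes and their values had been seen, so this is a description. Of 9 named relatives that were measured, 1 met the thresholds in both dry groups, beside 13.3% of all 5656 genes. This was ARI1, an aldehyde reductase related to YGL039W and YDR541C, with 763 ± 36.9 in control, 25.0 ± 4.004 at background in dried BY4743 and 116 ± 34.8 in commercial yeast. GRE2, the stress-responsive reductase of the same family, was higher in both dry yeasts, with 336 ± 11.5 in control, 1267 ± 72.4 in dried BY4743 and 3864 ± 247 in commercial yeast (limma, adjusted p = 3.46e-07 and 2.93e-08 against control). RMD9, the relative of YBR238C, read 409 ± 33.7, 399 ± 17.6 and 414 ± 94.6 in the same order of groups, although YBR238C was at background in dried BY4743. DIA1, the relative of YOR385W, read 930.1 ± 31.3, 810.4 ± 54.8 and 1467 ± 103. PRM5, the relative of YNL058C, read 919.9 ± 12.02, 611 ± 45.05 and 255 ± 38.1, and was lower than control in both dry yeasts (adjusted p = 0.00272 and 3.54e-06). TFC7, the relative of YNL108C, read 369 ± 50.5, 158 ± 16.5 and 207 ± 41.4, and was also lower in both (adjusted p = 0.00037 and 0.00271).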
